A study of Mus musculus with 10 samples.

Results

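Integrins are surface receptors built from 1 alpha and 1 beta chain, and the chains described here are the 10 genes Itgae, Itga1, Itga4, Itga6, Itgal, Itgav, Itgb1, Itgb2, Itgb3 and Itgb7 (6 alpha and 4 beta chains). They were taken by symbol from the 21898 genes of the deposited table, and each symbol had 1 row. The libraries are bulk RNA sequencing of CD8+ T cells of wild-type mouse spleen, kept for 5 days in medium alone (control) or in medium holding 10 mM N-acetylcysteine (NAC), which supplies cysteine for glutathione. There were 5 libraries per group, numbered 1 to 5, with 13.3 to 17.71 M reads in genes each. The labels name no stimulus, no sex or age, and do not tell whether a group's libraries are different animals, so p-values reflect only how these libraries vary, which may be technical.

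As background, an integrin on a resting T cell is held in a bent form of low affinity. Signals from antigen or chemokine receptors act through the small GTPase RAP1, talin and kindlin on the beta chain tail, and the receptor then extends and binds its ligand. The pairing decides the ligand: Itgal with Itgb2 (LFA1) binds ICAMs on antigen-presenting and target cells, Itga4 binds VCAM1 when paired with Itgb1 and the gut vessel ligand MADCAM1 when paired with Itgb7, Itgae with Itgb7 (CD103) binds E-cadherin on epithelium, Itga1 and Itga6 pair with Itgb1 to bind collagen and laminin, and Itgav with Itgb3 binds vitronectin and fibronectin.

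The numbers fell into a pair of sets, 1 and 2 against 3 to 5, in control and NAC alike. After each group's mean was taken out, control and NAC libraries of the same set correlated (r 0.47 to 0.6). Those of different sets correlated inversely (r -0.57 to -0.45). Principal components 1 and 2 held 50.8% and 31.8% of the variance, and their link to set or group was not tested. Cd4, which defines helper T cells, had 465 to 521 CPM (read counts scaled to TMM-normalised library size) in every library of the former set, against 0.766 to 2.76 CPM in the latter, which goes against the CD8+ T cell label of libraries 1 and 2. Cd8a was present in all libraries and was higher with NAC in both sets, at 202 to 213 CPM in control and 238 to 271 CPM with NAC in libraries 1 and 2, and at 488 to 522 and 650 to 667 CPM in libraries 3 to 5. The 7 CD8 T cell markers, all with reads, summed to 1450 to 1500 CPM in control and 1900 to 2100 CPM with NAC in libraries 1 and 2, and to 2130 to 2160 and 2560 to 2730 CPM in libraries 3 to 5. Of 6 dendritic cell markers Clec9a, Siglech and Cd209a had no reads, and the list summed to 8.25 to 10.3 CPM in control and 4.7 to 5.55 CPM with NAC in libraries 1 and 2, and to 15.5 to 17.4 and 11.6 to 12.7 CPM in libraries 3 to 5. Both lists moved with the group, and their part in the changes of the chains was not tested. All 4 helper T cell markers had reads. They summed to 625 to 643 CPM in control and 604 to 659 CPM with NAC in libraries 1 and 2. In libraries 3 to 5 they summed to 20.4 to 23.1 and 31.2 to 34.9 CPM, so there they also moved with the group. Cd4 itself was higher with NAC in both sets (465 to 467 against 486 to 521 CPM, and 0.766 to 2.0 against 2.23 to 2.76 CPM). The part of these markers in the NAC changes was not tested. The chains are therefore given over all libraries, where the difference between the sets counts as spread, and within the sets.

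The beta chains changed in opposite directions with NAC. Over all 10 libraries Itgb3, Itga6 and Itgb7 rose 2.96-fold, 1.76-fold and 1.63-fold with NAC, and Itgb1 fell 1.49-fold. The other 5 tested chains, Itgae, Itga4, Itgal, Itgav and Itgb2, did not pass edgeR's quasi-likelihood test at an adjusted p of 0.05. This fit held no term for the library set. Itga1 had too few reads to be tested. So 3 of 9 tested chains rose, where 6.69% of all 11403 tested genes rose, and 1 fell, where 4.88% fell; with library size alone in place of TMM these were 881 genes higher and 396 lower, against 763 and 556, and the chains' counts were the same. The lowest NAC library exceeded the highest control library for 4 of the 9 chains (8.62% of tested genes) and the highest NAC library was under the lowest control for 1 (7.75% of tested genes). The median log2 change was 0.27 for the 9 chains and 0.01 for all tested genes. In bulk samples, fewer cells that carry an RNA and less of it per cell cannot be told apart.

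**Figure D1:**
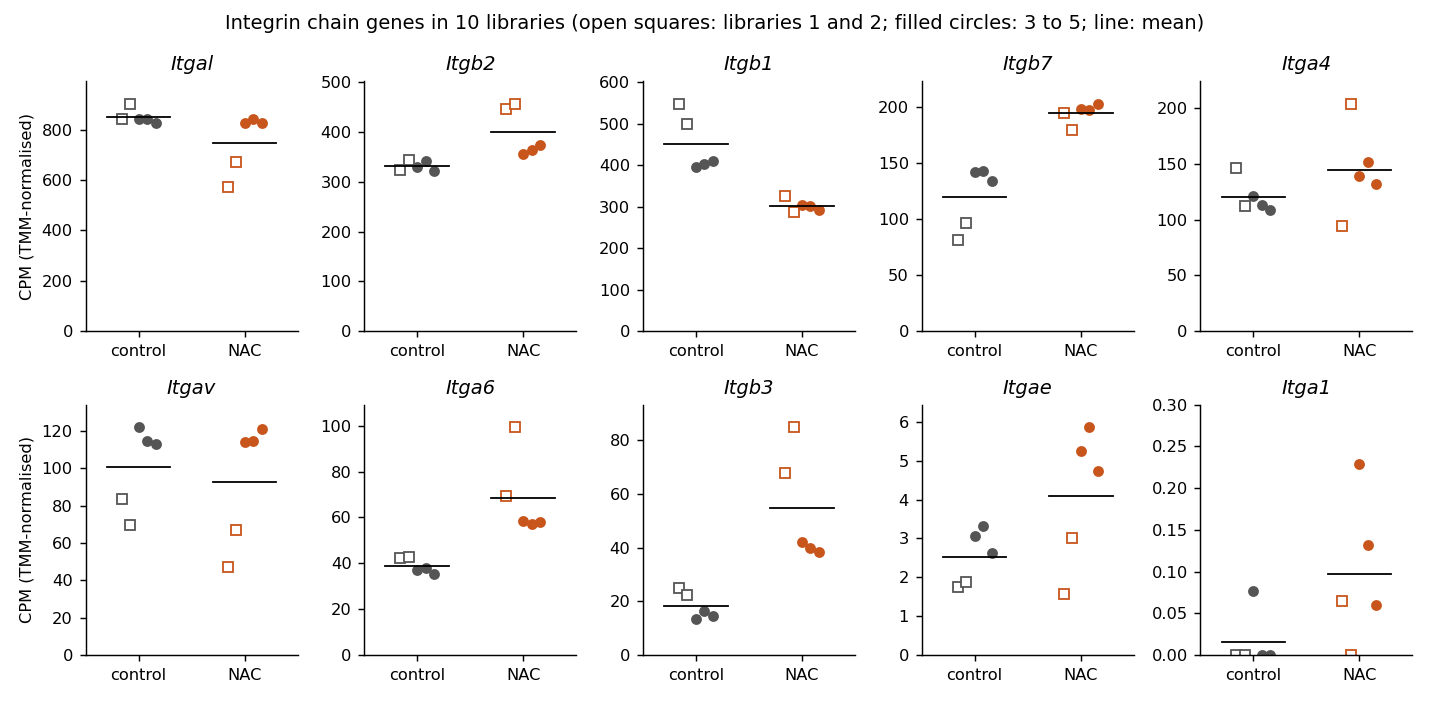
TMM-normalised read counts scaled to library size (CPM, y axis, from 0) of the 10 integrin chain genes in control and NAC libraries; open squares are libraries 1 and 2, filled circles libraries 3 to 5, and the line is the mean of 5. Itgb3, Itga6, Itgb7 and Itgb2 lie higher in every NAC library than in any control library and Itgb1 lies lower, while Itgal is low in NAC 1 and NAC 2 and Itgav in libraries 1 and 2 of both groups.

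Itgb7 is the beta chain shared by the gut homing receptor with Itga4 and by CD103 with Itgae. It was at 81.8, 96.4, 142, 143 and 134 CPM in control 1 to 5 and at 195, 180, 198, 197 and 203 CPM in NAC 1 to 5. The control libraries split by set, with 1 and 2 low. NAC 1 and NAC 2 were also below NAC 3 to 5, by less. Every NAC library lay above the highest control. The log2 change was 0.71 ± 0.15 (SE; adjusted p = 0.0183, edgeR). Within the sets it was 1.08 ± 0.08 in libraries 1 and 2 (edgeR adjusted p = 3.02e-07) and 0.51 ± 0.07 (0.000134) in the libraries 3 to 5. The rise was larger in libraries 1 and 2, where control Itgb7 was lower, and the difference of 0.56 ± 0.10 passed (edgeR interaction contrast, adjusted p = 0.0011).

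Itgb1, the beta chain with the most alpha partners and the main receptor chain for matrix proteins and VCAM1, went the other way. It was at 548, 500, 395, 404 and 409 CPM in control 1 to 5 and at 325, 288, 304, 302 and 292 CPM in NAC 1 to 5. The control libraries again differed by set, here with 1 and 2 high, and no NAC library reached the lowest control. The log2 change was -0.58 ± 0.11 (SE; edgeR adjusted p = 0.0105). It was -0.77 ± 0.07 in libraries 1 and 2 (edgeR adjusted p = 2.03e-06) and -0.43 ± 0.06 (0.000274) for libraries 3 to 5. Between sets, the difference passed (-0.35 ± 0.10, edgeR adjusted p = 0.0114), but not without control 1 (-0.28, adjusted p = 0.0698).

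Because Itgb1 and Itgb7 both pair with Itga4, their levels were set side by side per length, in FPKM (reads scaled to gene length and library total). Itgb7 made up 18.0, 22.1, 34.6, 34.3 and 32.6% of the summed FPKM of the pair in control 1 to 5 and 46.9, 48.0, 48.9, 49.1 and 50.6% in NAC 1 to 5. The mean share was 28.3 ± 7.71% (SD, n = 5) in control and 48.7 ± 1.38% (SD, n = 5) with NAC. In control there was 4.55 and 3.52 times as much Itgb1 as Itgb7 FPKM in libraries 1 and 2 and 1.89 to 2.07 times as much in libraries 3 to 5. With NAC the ratio was 0.974 to 1.13 in all 5 libraries, near equal RNA levels. These ratios describe the libraries and were not tested, since the direction of both genes was known when they were chosen.

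The promoters of Itgb7 and Itgb1 are shown because these chains moved in opposite directions and both had a sequence in the RefSeq promoter table, which held 5 of the 10 chains (GRCm38.p6, 250 bases before to 50 after the gene start). Itgb7 (ENSMUSG00000001281) lies on chromosome 15 at 102215995 to 102231944, minus strand, and Itgb1 (ENSMUSG00000025809) on chromosome 8 at 128685654 to 128733200, plus strand, in GENCODE M21 (GRCm38). Each sequence reads 5′ to 3′ on the strand of its gene. Capitals mark matches on either strand to TGTGG (RUNX), CAGAC (SMAD) and GGAAG (ETS); TGANTCA (AP-1), also searched on either strand, had no match in either promoter, and no matches overlapped.
Itgb7, chr15:102231886-102232185, minus strand: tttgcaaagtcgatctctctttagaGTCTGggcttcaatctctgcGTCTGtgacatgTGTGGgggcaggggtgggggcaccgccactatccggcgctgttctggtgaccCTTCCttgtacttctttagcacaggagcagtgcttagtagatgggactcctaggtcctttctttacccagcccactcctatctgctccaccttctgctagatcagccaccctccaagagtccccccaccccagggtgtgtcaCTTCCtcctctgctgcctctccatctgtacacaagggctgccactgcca
Itgb1, chr8:128685404-128685703, plus strand: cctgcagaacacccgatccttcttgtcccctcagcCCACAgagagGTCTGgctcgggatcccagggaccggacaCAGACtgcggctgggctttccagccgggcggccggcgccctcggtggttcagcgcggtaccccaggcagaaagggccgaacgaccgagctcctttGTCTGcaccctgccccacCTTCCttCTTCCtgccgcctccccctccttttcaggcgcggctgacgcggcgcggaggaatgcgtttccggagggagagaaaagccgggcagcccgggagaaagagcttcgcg
Itgb7 held 1 RUNX, 2 SMAD and 2 ETS matches and Itgb1 held 1, 3 and 2. Such short words are common: 55.9% of the 32851 promoters in the table hold the RUNX letters, 49.6% the SMAD letters, 71.4% the ETS letters and 7.81% the AP-1 letters. The base composition of the pair differed more than their words. The Itgb1 promoter had 67.3% G and C and 27 CpG sites, and the Itgb7 promoter 56.3% and 5, against medians of 52.7% and 7 over the table.

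Itgb3 is the beta chain of the vitronectin receptor, whose alpha partner is Itgav, and in platelets it pairs with Itga2b. It showed the largest change among the 9 tested chains. Its levels were 25.1, 22.4, 13.5, 16.5 and 14.6 CPM in control 1 to 5 and 67.9, 84.8, 42, 39.9 and 38.5 CPM in NAC 1 to 5. Libraries 1 and 2 were the high ones in both groups, and the lowest NAC library stood well above the highest control. The log2 change was 1.56 ± 0.27 (SE; edgeR adjusted p = 0.00732), higher than in 98.6% of the tested genes. It was 1.68 ± 0.12 in libraries 1 and 2 (edgeR adjusted p = 1.76e-07) and 1.43 ± 0.11 in libraries 3 to 5 (1.66e-06). A difference between the sets was not called (0.25 ± 0.16, edgeR adjusted p = 0.218), and without NAC 1 it was (0.41, adjusted p = 0.00816). The gene (ENSMUSG00000020689) lies on chromosome 11.

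Markers of platelets and megakaryocytes were near 0. Of 7 such genes 6 had any reads, and Gp1bb had none. They summed to 1.13 to 3.68 CPM over the control libraries and 1.57 to 3.16 CPM over the NAC libraries, below the level of Itgb3 in every library. The part of such cells in the change of Itgb3 was not tested. Pf4, a platelet chemokine, was at 0 CPM in libraries 1 and 2 of both groups and went from 0.919 to 1.45 CPM in control 3 to 5 to at most 0.0602 CPM in NAC 3 to 5. Itga2b, the platelet partner chain, averaged 2.76 ± 1.57 CPM without NAC and 3.86 ± 0.534 CPM with it (SD, n = 5; edgeR adjusted p = 0.448); it rose in libraries 1 and 2 (log2 change 1.70, adjusted p = 0.000152) and not by the test in libraries 3 to 5 (0.07, 0.82).

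Itgav, the alpha partner of Itgb3, did not rise with it. It was at 83.5, 69.9, 122, 115 and 113 CPM in control 1 to 5 and at 47.3, 66.8, 114, 115 and 121 CPM in NAC 1 to 5. The levels split by set: libraries 3 to 5 of both groups were all above libraries 1 and 2 of both groups. The log2 change was -0.12 ± 0.26 over all libraries (SE; edgeR adjusted p = 0.792), with a direction that turned without NAC 1 (0.05, adjusted p = 0.902). Within the sets Itgav fell in libraries 1 and 2 (-0.43 ± 0.13, edgeR adjusted p = 0.0115), not without control 1 (-0.29, adjusted p = 0.138) and not in a fit to these 4 libraries alone (-0.45 ± 0.18, adjusted p = 0.0708). Its log2 change in libraries 3 to 5 was 0.00 ± 0.10 (edgeR adjusted p = 0.992). A difference between the sets was not called (-0.43 ± 0.16, edgeR adjusted p = 0.0522), but passed with DESeq2's size factors, with no filter on low counts, with DESeq2's or limma's test, and without control 2 or NAC 2 (adjusted p 1.3e-07 to 0.0493). In GENCODE M21 an antisense transcript overlaps 5.9% of the exonic bases of Itgav, and nothing in the sources used here says that counting used strand, so reads of the pair cannot be told apart.

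Per length there was 1.83 and 1.71 times as much Itgav as Itgb3 in control 1 and 2, and 3.84 to 4.99 times as much in control 3 to 5. With NAC the ratio was 0.383 and 0.433 in libraries 1 and 2 and 1.49 to 1.73 in libraries 3 to 5. So the alpha chain RNA was the more abundant of the pair in 8 libraries and the less abundant in NAC 1 and NAC 2. These ratios were not tested.

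**Figure D2:**
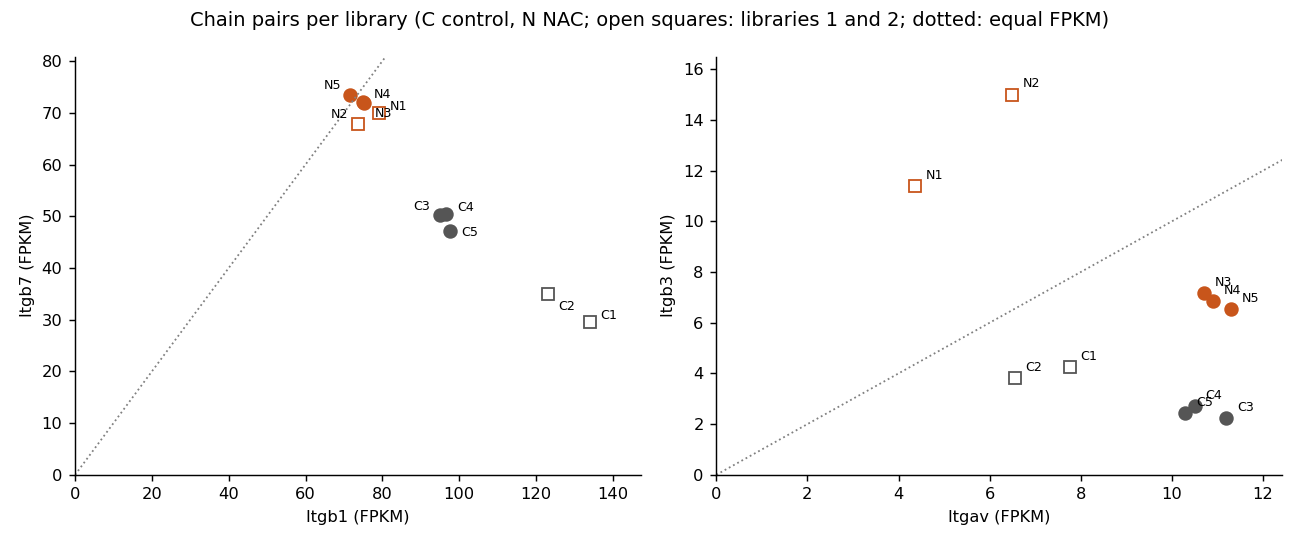
Deposited FPKM of Itgb7 against Itgb1 (left) and of Itgb3 against Itgav (right), 1 point per library, with equal levels on the dotted line. On the left the 5 NAC libraries (N) gather next to the line, at 46.9 to 50.6% Itgb7, while the control libraries (C) spread from 18.0 to 34.6%; on the right NAC 1 and NAC 2 alone lie above the line.

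Itga6 pairs with Itgb1 to bind laminin and is a surface marker of stem cells in several tissues. It was at 42.1, 42.6, 37.1, 38 and 35.2 CPM in control 1 to 5 and at 69.6, 99.3, 58.4, 57.1 and 57.9 CPM in NAC 1 to 5. The groups did not overlap, and NAC 2 was the highest library. The log2 change was 0.81 ± 0.16 (SE; edgeR adjusted p = 0.0121). For libraries 1 and 2 it was 1.0 ± 0.13 (edgeR adjusted p = 2.05e-05) and it was 0.65 ± 0.11 (0.000687) in libraries 3 to 5. A set difference was not called (0.34 ± 0.16, edgeR adjusted p = 0.11), except without NAC 1 (0.58, adjusted p = 4.52e-06). Itga6 rose while Itgb1, its beta chain in lymphocytes, fell.

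Itga4, the alpha chain of both VCAM1 and MADCAM1 receptors, was at 146, 112, 121, 113 and 109 CPM in control 1 to 5 and at 94.3, 204, 139, 152 and 132 CPM in NAC 1 to 5. NAC 1 was below every control and NAC 2 above all other libraries, so the groups overlapped, while in libraries 3 to 5 every NAC value lay above every control value. NAC minus control was 0.26 ± 0.18 on the log2 scale (SE; edgeR adjusted p = 0.343). In libraries 1 and 2 it was 0.21 ± 0.24, which became -0.45 without NAC 2 and 0.66 without NAC 1 (edgeR adjusted p = 0.478, 0.0727 and 0.0162). In libraries 3 to 5 it was 0.31 ± 0.20 with the spread of all 10 libraries (edgeR adjusted p = 0.264) and 0.31 ± 0.05 in a fit to these 6 libraries alone (4.93e-07). Cerkl, on the opposite strand, shares 8.04% of the exonic bases of Itga4, so a part of its reads may belong to that gene.

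Itgae, the alpha chain of CD103 and a marker of tissue-resident CD8+ T cells, was low. It had 31, 31, 40, 55 and 43 reads in control 1 to 5 (1.75, 1.88, 3.06, 3.33 and 2.63 CPM) and 24, 46, 92, 89 and 79 reads in NAC 1 to 5 (1.57, 3.0, 5.26, 5.86 and 4.75 CPM). The NAC libraries 3 to 5 were the highest of all, and NAC 1 was the lowest. Over all libraries the log2 change was 0.69 ± 0.35 (SE; edgeR adjusted p = 0.214). With a term for the library set it passed (0.64 ± 0.20, edgeR adjusted p = 0.0286). Itgae rose in libraries 3 to 5 (0.81 ± 0.21, edgeR adjusted p = 0.0131), where the call ended without control 5 (0.72, adjusted p = 0.062) or NAC 4 (0.74, adjusted p = 0.0572). In libraries 1 and 2 its log2 change was 0.33 ± 0.31 (edgeR adjusted p = 0.378), which turned to -0.21 without NAC 2, and a difference between the sets was not called (-0.48 ± 0.38, adjusted p = 0.329). Its partner Itgb7 was 71.1 to 84.8 times as high in FPKM in control and 55.7 to 206 times as high with NAC.

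Itga1, the collagen-binding chain of resident CD8+ T cells, was at the limit of detection. It had 1 read in control, in library 3, and 8 reads with NAC (1, 0, 4, 2 and 1 in libraries 1 to 5). No fold change is given at this depth, and a difference was not detectable.

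Itgb2 and Itgal encode LFA1, the main adhesion receptor of the immunological synapse. Itgb2 was at 324, 344, 329, 343 and 321 CPM in control 1 to 5 and at 446, 457, 356, 365 and 375 CPM in NAC 1 to 5. The groups did not overlap, though the margin was small in libraries 3 to 5. The log2 change of 0.27 ± 0.09 did not pass over all libraries (SE; edgeR adjusted p = 0.0783). It passed with a term for the library set (0.26 ± 0.07, edgeR adjusted p = 0.0132) and with DESeq2's Wald test (0.26, adjusted p = 0.0275). In libraries 1 and 2 Itgb2 rose (0.44 ± 0.07, edgeR adjusted p = 8.18e-05), and in libraries 3 to 5 its change was 0.14 ± 0.05 (0.0597), or 0.14 ± 0.03 in a fit to these libraries alone (0.000318). The difference of 0.29 ± 0.08 between the sets passed (edgeR adjusted p = 0.0139), but not without control 1 (0.25, adjusted p = 0.0726) or without a filter on low counts (0.25, adjusted p = 0.059).

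Itgal was at 841, 903, 843, 844 and 825 CPM in control 1 to 5 and at 574, 670, 826, 844 and 827 CPM in NAC 1 to 5. NAC 1 and NAC 2 were the low libraries, and the others were at 825 to 903 CPM, with control 2 the highest. NAC minus control was -0.19 ± 0.11 on the log2 scale over all libraries (SE; edgeR adjusted p = 0.293). Itgal fell in libraries 1 and 2 (-0.49 ± 0.08, edgeR adjusted p = 0.000173), and its change was -0.01 ± 0.07 (0.941) in libraries 3 to 5. That difference passed (-0.48 ± 0.10, edgeR adjusted p = 0.00274). In FPKM there was 0.82 to 0.874 times as much Itgb2 as Itgal in control, 1.67 and 1.47 times as much in NAC 1 and NAC 2, and 0.927 to 0.977 times as much in NAC 3 to 5.

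**Figure D3:**
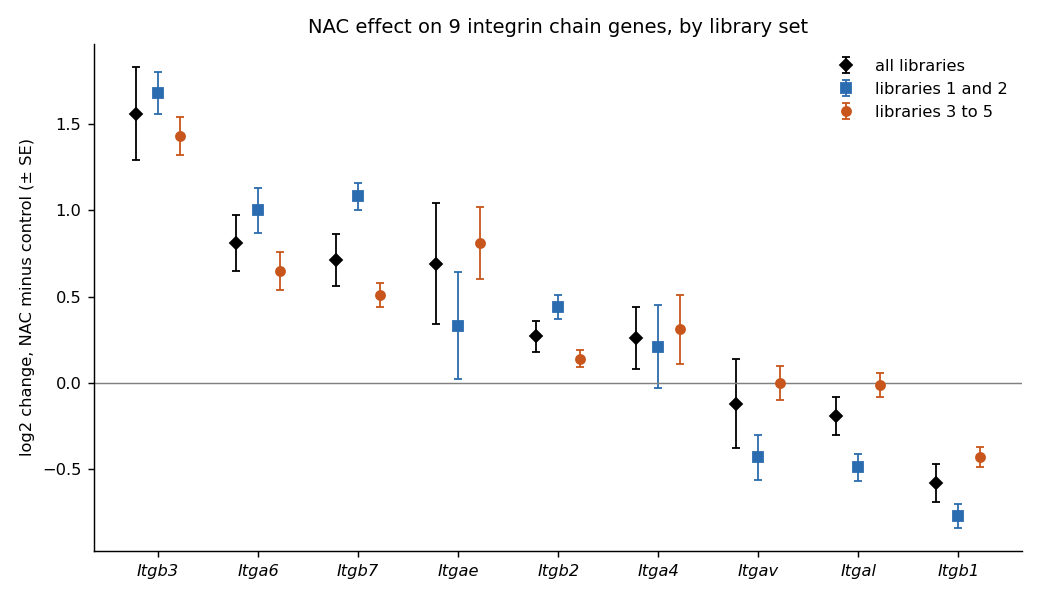
Log2 change (NAC minus control, y axis, ± SE from edgeR) of the 9 tested integrin chains, for all 10 libraries (diamonds) and by contrasts within libraries 1 and 2 (squares) and 3 to 5 (circles). Itgb3, Itga6 and Itgb7 are above 0 and Itgb1 below 0 in all 3 comparisons, while Itgal and Itgav are below 0 in libraries 1 and 2 and at 0 in libraries 3 to 5.

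Counted by set, 4 of the 9 chains rose in libraries 1 and 2 (32.2% of tested genes rose there) and 3 fell (28.3% fell). In libraries 3 to 5, 4 rose (15.0% of tested genes) and 1 fell (14.0%). Itgb3, Itga6, Itgb7 and Itgb1 were called in the same direction in both. In a fit to libraries 3 to 5 alone, leaving out the libraries with Cd4, Itgae, Itga4 and Itgb2 were called as well, which made 6 chains that rose (23.7% of 11407 tested genes) and 1 that fell (25.0%). A fit to libraries 1 and 2 alone called Itgb3, Itga6, Itgb7 and Itgb2 as higher and Itgb1 and Itgal as lower. Its edgeR adjusted p ran from 0.00023 for Itgb3 to 0.0255 for Itgb2, larger for each of these chains than in the contrast. Over all genes, 2776 were called higher and 2363 lower in that fit. The effect differed between the sets for Itgb7, Itgb2, Itgal and Itgb1, 4 of 9 chains, where 41.9% of tested genes differed. The sets were those that these data separate, helper T cell markers moved with them, and their part in the differences was not tested.

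In control, without any agent, the chains also differed by set. Control libraries 3 to 5 had 1.66 times the mean CPM of Itgae, 1.57 times that of Itgb7 and 1.52 times that of Itgav in control libraries 1 and 2. Libraries 1 and 2 had 1.60 times the Itgb3 and 1.30 times the Itgb1. For Itgal, Itgb2, Itga4 and Itga6 the ratio of libraries 1 and 2 to libraries 3 to 5 was between 1.01 and 1.15. These are descriptions, since the sets were found in the same data.

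Per length, the levels spanned more than the changes did. In control the order by mean FPKM was Itgal (128 ± 6.08, SD, n = 5), Itgb1 (109 ± 18.1), Itgb2 (107 ± 4.13), Itgb7 (42.5 ± 9.62), Itgav (9.24 ± 1.98), Itga4 (8.50 ± 1.15), Itga6 (4.22 ± 0.407), Itgb3 (3.09 ± 0.893), Itgae (0.544 ± 0.145) and Itga1. The ranges of Itgal and Itgb1, Itgb1 and Itgb2, Itgav and Itga4, and Itga6 and Itgb3 overlapped. With NAC the order was Itgb2 (133 ± 17.2), Itgal (115 ± 18.5), Itgb1 (74.8 ± 2.69), Itgb7 (71.1 ± 2.19), Itga4 (10.5 ± 3.11), Itgb3 (9.39 ± 3.72), Itgav (8.73 ± 3.12), Itga6 (7.60 ± 2.16), Itgae (0.903 ± 0.388) and Itga1. Neighbours from Itga4 to Itga6 overlapped there, as did Itgb2 with Itgal and Itgb1 with Itgb7. Itgal made up 85.0 ± 1.45% (SD, n = 5) of the summed FPKM of the 6 alpha chains in control and 80.6 ± 2.61% with NAC. The 4 beta chains summed to 262 ± 11.8 FPKM in control and 288 ± 19.6 FPKM with NAC, and Itgb2 made up 41.0 ± 1.36% and 45.9 ± 2.79% of that.

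**Figure D4:**
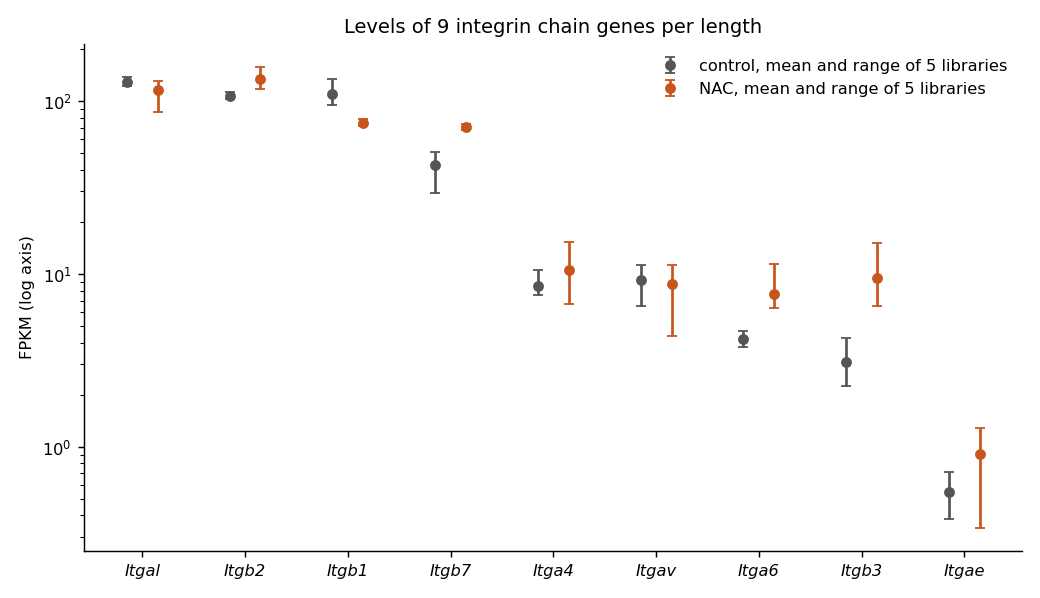
Deposited FPKM (log axis) of 9 integrin chains, mean (point) and range (bar) of 5 control and 5 NAC libraries; Itga1, with 9 reads in all, is not drawn. Itgal, Itgb2, Itgb1 and Itgb7 are at 29.5 FPKM or more in every library, Itgae is at 1.29 FPKM or less, and the gap between Itgb1 and Itgb7 closes with NAC.

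The search took the 8618 genes with a mean of at least 10 CPM over the 10 libraries. Those whose log2 CPM followed a called chain most closely are named as a description of likeness. For Itgb7 they were Acyp1, Smim14 and Mdp1 (Pearson r 0.987, 0.986 and 0.986), for Itgb1 Myo19, Eloa and U2af2 (0.991, 0.991 and 0.990), for Itgb3 Ralgps2, Ddr1 and Thra (0.987, 0.987 and 0.986), and for Itga6 Unc119b, Thra and Lbh (0.989, 0.985 and 0.984). Thra, a thyroid hormone receptor, was named for both Itgb3 and Itga6 and went from 5.20 to 15.6 CPM. These libraries share 2 sets and 2 groups, which many genes follow.

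Of the other 16 integrin chains of the mouse, 9 were tested and none passed in edgeR over all libraries. The most abundant were Itga5, the fibronectin receptor chain, with 12.1 ± 5.53 CPM for control and 15.0 ± 5.37 CPM for NAC (SD, n = 5; edgeR adjusted p = 0.567), and Itga3, a laminin receptor chain, at 11.1 ± 7.59 and 7.43 ± 4.66 CPM (0.49). Itga5 rose in libraries 3 to 5 (log2 change 0.46 ± 0.11, edgeR adjusted p = 0.0061), also in a fit to these alone (0.00194), and it passed with a term for the library set (0.0142), while in libraries 1 and 2 it was not called (0.20 ± 0.11, 0.14). Itga3 fell in libraries 1 and 2 (-0.64 ± 0.16, edgeR adjusted p = 0.00465) and was not called in libraries 3 to 5 (-0.46 ± 0.17, 0.0641). With the library number as a block Itga3 passed, with a log2 change of -0.54 ± 0.13 (edgeR adjusted p = 0.0272). Itga3 also passed in a fit to libraries 3 to 5 alone (-0.46, edgeR adjusted p = 0.0297) and with a term for the library set (-0.54, 0.00944). Its difference between the sets was not called (-0.18 ± 0.24, edgeR adjusted p = 0.57). Itgam and Itgax, chains of myeloid cells that pair with Itgb2, had 13 and 75 reads over all 10 libraries. The 7 myeloid markers summed to 6.73 to 8.37 CPM in control and 2.94 to 3.2 CPM with NAC in libraries 1 and 2. In libraries 3 to 5 they summed to 4.37 to 4.79 and 2.89 to 4.48 CPM, which overlap. The list moved with the group in libraries 1 and 2, and its part in the changes of the chains was not tested.

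Of 24 tested genes of inside-out activation, the machinery that switches integrins on, 3 rose, 3 fell and 18 did not pass, where 6.69% of all tested genes rose and 4.88% fell, and the median log2 change was 0.06. In this list and those that follow, 17 named genes passed over all libraries, and all 17 were called in the same direction in both sets. They were named for passing over these same libraries, so the agreement of the sets is no separate support. Rasgrp2, the exchange factor that loads RAP1, rose from 9.34 ± 1.81 to 26.7 ± 3.87 CPM (SD, n = 5; log2 change 1.51 ± 0.16 SE, edgeR adjusted p = 0.000751), by 1.94 in libraries 1 and 2 and 1.24 in libraries 3 to 5, a difference that passed (0.70 ± 0.20, adjusted p = 0.0133). Skap1, an adaptor that links the T cell receptor to RAP1 and LFA1, rose from 78.7 ± 13.5 to 129 ± 4.04 CPM (0.71 ± 0.11, edgeR adjusted p = 0.00632), also by more in libraries 1 and 2 (difference 0.46 ± 0.10, adjusted p = 0.00389). Flna, the actin crosslinker filamin A that competes with talin for beta chain tails, fell from 687 ± 93.5 to 389 ± 94.4 CPM (-0.82 ± 0.17, edgeR adjusted p = 0.0167). Rasgrp1 rose by 0.43 on the log2 scale (edgeR adjusted p = 0.0435), Tln2, a talin, fell by 0.74 (0.0341), and Rap1gds1 fell by 0.34 (0.0485). Those 3 calls were near the threshold. That of Rasgrp1 ended without any 1 library other than NAC 1 (log2 change 0.39 to 0.46, adjusted p 0.069 to 0.0995), that of Rap1gds1 without any other than control 5 (-0.38 to -0.28, adjusted p 0.0532 to 0.116), and that of Tln2 without control 1, 2, 4 or 5 or NAC 1, 4 or 5 (-0.74 to -0.67, adjusted p 0.0511 to 0.0791). Rasgrp1 also did not pass with limma-voom (adjusted p = 0.053), without a filter on low counts (edgeR adjusted p = 0.0778) or in libraries 1 and 2 alone (0.153). Rap1gds1 did not pass with limma-voom (adjusted p = 0.053) or library size alone (edgeR adjusted p = 0.0899). Under the block, 5 of the 24 rose and 3 fell, where 11.5% of all tested genes rose and 8.22% fell.

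Of 22 tested genes of adhesion signalling 2 rose and 1 fell, where 6.69% and 4.88% of all tested genes did, and the median log2 change was 0.00. Pxn, the adaptor paxillin, rose from 67.7 ± 3.85 to 86.3 ± 8.18 CPM (SD, n = 5; edgeR adjusted p = 0.0258), and Tns3, a tensin that binds beta chain tails, from 1.2 ± 0.616 to 3.86 ± 1.33 CPM (0.025). Nedd9, a docking protein of lymphocyte adhesion, fell from 85.4 ± 4.38 to 64.2 ± 9.92 CPM (edgeR adjusted p = 0.0362), by 0.75 on the log2 scale in libraries 1 and 2 and 0.20 in libraries 3 to 5, a difference that passed (-0.55 ± 0.09, adjusted p = 0.000409). Pxn was not called when control 1, control 3 or NAC 2 was left out (adjusted p 0.0549 to 0.0654). The call of Tns3 ended without control 1, 2 or 3 or NAC 2, 3 or 4 (0.0516 to 0.0619), and that of Nedd9 without any control library or NAC 2 (0.0561 to 0.0819). With the block 3 rose and 3 fell (11.5% and 8.22% of all tested genes).

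Of 12 tested ligands of integrins 1 rose and 1 fell, where 6.69% and 4.88% of all tested genes did, and the median log2 change was 0.32. Fn1, fibronectin, rose from 0.926 ± 0.482 to 3.72 ± 1.63 CPM (SD, n = 5; log2 change 2.01 ± 0.44 SE, edgeR adjusted p = 0.0188), by 3.61 in libraries 1 and 2 and 1.04 in libraries 3 to 5, a difference that passed (2.57 ± 0.45, adjusted p = 0.00075). Thbs1, the matrix protein thrombospondin, fell from 2.27 ± 0.361 to 0.48 ± 0.328 CPM (-2.23 ± 0.42, edgeR adjusted p = 0.011). Icam1, the ligand of LFA1, averaged 76.7 CPM without and 52.7 CPM with the agent, a difference not called over all libraries (log2 change -0.54 ± 0.20, edgeR adjusted p = 0.0936). It fell in libraries 1 and 2 (-0.92 ± 0.08, edgeR adjusted p = 1.34e-06), in libraries 3 to 5 (-0.37 ± 0.07, 0.00124) and with the block (-0.59 ± 0.12, 0.0165). Icam1 falls outside the rule for naming genes and was chosen after its values were seen, as was Itga2b above. With the block 1 ligand rose and 2 fell, Thbs1 and Icam1 (11.5% and 8.22% of all tested genes).

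Among 18 tested adhesion molecules other than integrins 3 rose and none fell, where 6.69% and 4.88% of all tested genes did, and the median log2 change was -0.03. Ceacam1, a homophilic inhibitory receptor, rose from 1.84 ± 0.351 to 4.81 ± 1.06 CPM (SD, n = 5; edgeR adjusted p = 0.00693). Epcam, an epithelial adhesion molecule, rose from 2.19 ± 0.197 to 9.95 ± 8.34 CPM (0.0268), by 3.11 on the log2 scale in libraries 1 and 2 and 0.84 in libraries 3 to 5 (difference 2.27 ± 0.27, adjusted p = 5.25e-05). Selplg, the selectin ligand PSGL1, rose from 204 ± 37.9 to 281 ± 24.5 CPM (edgeR adjusted p = 0.0432), and with the block it did not pass (0.0521). Selplg rose by 0.90 on the log2 scale in libraries 1 and 2 and by 0.20 in libraries 3 to 5 (edgeR adjusted p of the difference 7.67e-05). The call of Epcam ended without any control library or NAC 2 (adjusted p 0.0542 to 0.0637) and with limma-voom (0.1), and that of Selplg without any library other than control 4 (0.058 to 0.0934). With the block 3 rose and 4 fell (11.5% and 8.22% of all tested genes).

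Transforming growth factor beta induces Itgae in T cells, and integrins with Itgav release the cytokine from its latent complex. Of 18 tested genes of the pathway 3 rose and none fell, where 6.69% and 4.88% of all tested genes did, and the median log2 change was -0.04. Those that rose were low: Ltbp3, a latency-binding protein, went from 1.48 ± 0.485 to 5.55 ± 2.48 CPM (SD, n = 5; edgeR adjusted p = 0.0118), Ltbp4 from 0.847 ± 0.152 to 3.97 ± 3.33 CPM (0.0263; 3.11 on the log2 scale in libraries 1 and 2 and 1.01 in libraries 3 to 5, adjusted p of the difference 0.00348) and the ligand Tgfb3 from 0.297 ± 0.288 to 1.17 ± 0.309 CPM (0.0395). The call of Ltbp4 ended without any control library or NAC 2 (adjusted p 0.0501 to 0.0635) and with limma-voom (0.0762), and that of Tgfb3 without any library other than control 2 (0.0554 to 0.0889). Tgfb3 also did not pass without a filter on low counts (edgeR adjusted p = 0.0607) or in libraries 1 and 2 alone (0.0779). With the block 3 rose and 1 fell (11.5% and 8.22% of all tested genes). The 7 B cell markers, all with reads, summed to 2.32 to 9 CPM in control and 11.9 to 13.5 CPM with NAC. They moved with the group, and their part in the rise of genes at a few CPM was not tested.

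**Figure D5:**
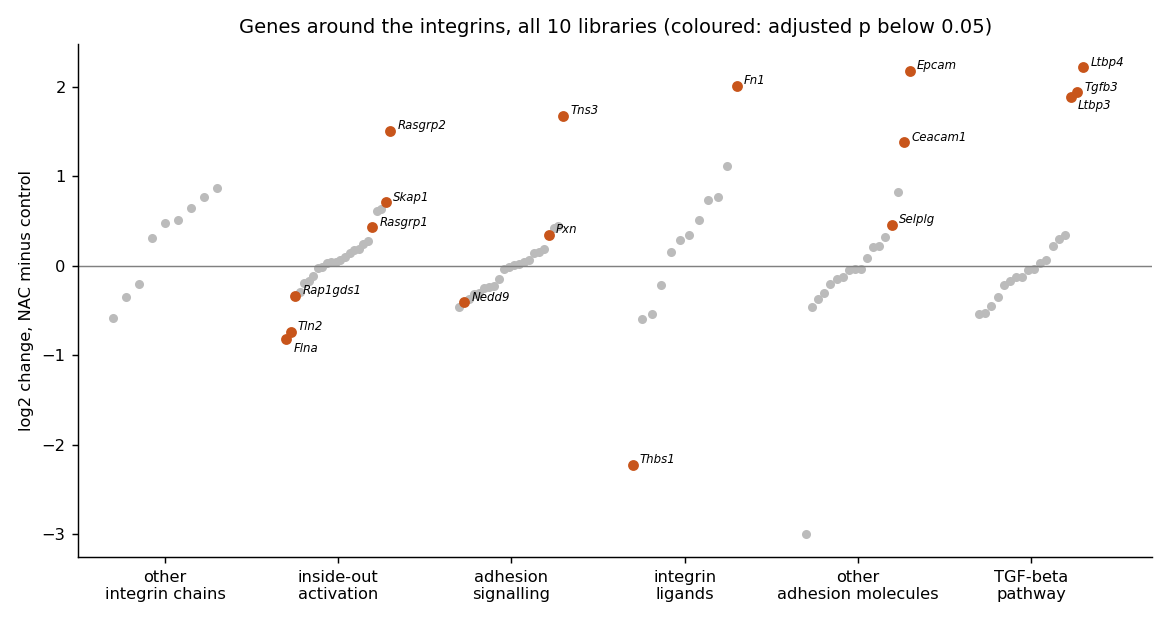
Log2 change (NAC minus control, y axis, all 10 libraries) of the tested genes in 6 lists around the integrins; each point is a gene, sorted by value within its list, coloured and named where edgeR's adjusted p was below 0.05. Called genes are few in each list, with Ltbp4, Epcam and Fn1 the highest and Thbs1 the lowest of those called.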

How the data were processed

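The series was measured by bulk RNA sequencing, per the labels' protocols from 1.3 µg of total RNA with a SMARTER mRNA kit. Per the file headers, the deposited table gives a read count and an FPKM for each gene and library. The authors' counts are whole numbers and entered the tests unchanged. FPKM from the authors equal count over gene length and library total and served for description. No source used here gives the aligner or counting tool, and GRCm38 and mm10 are named in the submitters' processing notes.

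The test was edgeR 4.0.16 under R 4.3.3 (filterByExpr, TMM, robust quasi-likelihood F test, Benjamini-Hochberg over 11403 genes, two-sided, threshold 0.05), NAC against control without a covariate. Values within library sets are contrasts from 1 fit of agent by set over all 10 libraries. That fit takes the same spread for both sets. The common coefficient of variation was 11.9% in libraries 1 and 2 alone and 3.6% in libraries 3 to 5 alone. SE: log2 change over the root of F. CPM are TMM-normalised. The procedure was tested on simulated data that held no difference between library sets, so that test does not cover the spread the sets add. Depth covers counting error only. Libraries of a group differed beyond sampling noise (chi-square of at least 2.38 per gene). NAC 1 and NAC 2 differed more (28.5) than any pair of a group within libraries 3 to 5 (at most 3.39).

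Same-number libraries deviated together (r 0.48 to 0.60), above the rule of 0.1 for pairs, but so did other numbers of a set (0.47 to 0.58), and for 3 of 10 libraries the best match was its own number. Pairing comes from the shared number in the titles. Alternatives were DESeq2 1.42.0, limma-voom (limma 3.58.1), other scalings and filters, each library left out, a replicate block, a set term and each set alone. Members, lists, sets and tests were chosen with earlier results of these data known. Named genes are the 10 chains, up to 3 rising and 3 falling called genes per list (or the 2 most abundant), markers, and the 3 genes most correlated with each called chain.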

Additional observations from a re-analysis of the deposited data

Results flagged for a closer look

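Itgal in control 2, at 903 CPM, stood apart from the other control libraries, which were at 825 to 844 CPM; about 1 in 20 such groups stands out in this way by chance. The effect of NAC differed between libraries 1 and 2 and libraries 3 to 5 for 4 chains by the interaction contrast in edgeR. The difference, as the log2 effect in libraries 1 and 2 minus that in libraries 3 to 5, was 0.56 for Itgb7, 0.29 for Itgb2, -0.35 for Itgb1 and -0.48 for Itgal. Cd4 separates the same sets, and its part in these differences was not tested.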

How the results depend on the processing

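The calls of Itgb3, Itga6, Itgb7 and Itgb1 over all libraries held in all 21 alternatives, with adjusted p of at most 0.0447. The number of genes called, 1319, became 2287 with DESeq2's Wald test, 2254 with the replicate block, 4155 with a term for the library set, 5557 in libraries 3 to 5 alone and 5139 in libraries 1 and 2 alone, and ran from 631 to 1405 when 1 library was left out. It fell by more than 1.5 times without control 1 (657), control 2 (631), control 3 (824), control 4 (866), control 5 (857) or NAC 2 (696). The 4 chains called over all libraries became 5 with DESeq2's Wald test, 6 with a term for the library set, 6 in libraries 1 and 2 alone and 7 in libraries 3 to 5 alone. The 4 chains that differed between the sets became 2 to 6 when 1 library was left out, with 2 without control 1. The replicate block changed no call of a chain, and of the other named genes of the lists it changed that of Selplg, Itga3 and Icam1.

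Directions turned only for values that were not called. With library size alone, the log2 changes of Itgal and Itgav in libraries 3 to 5 were 0.0348 and 0.0411. With 1 library left out, Itgav ran from -0.23 to 0.0496 over all libraries and from -0.0273 to 0.0323 in libraries 3 to 5, and in libraries 1 and 2 Itgae ran from -0.21 to 0.73 and Itga4 from -0.45 to 0.66. The difference of Itga4 between the sets ran from -0.76 to 0.36. The cause was not tested. Of the 675 values of chains under alternatives, 637 kept their direction and side of the threshold. With 9 reads in 10 libraries Itga1 cannot be compared, and Itgae rests on 24 to 92 reads per library.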
